A study of Homo sapiens with 6 samples.

Results

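INHBE, GDF15, STC2, ULBP1, FAM129A and VLDLR are 6 of the 57773 genes in a table of RNA levels from H460 cells, a human non-small-cell lung cancer line. They were chosen by the difference in level between the knockdown and control libraries described here, since several were higher after depletion of the long intergenic noncoding RNA HKlincR1 (AC093323.3). That difference is therefore given as a description and was not tested. Both groups were transfected with siRNA at 50 nM and collected after 48 h. The control group received a non-targeting siRNA (siNT, n = 3) and the other group received the siRNA siHKlincR1_2 (siHKlincR1, n = 3), so no group was left untransfected and each library comes from 1 cell line. Poly(A) RNA was sequenced, and levels are in RPKM, read counts scaled to the length of the gene and to the mapped reads of the library. The deposited values cover RNA only, and neither protein at the surface nor protein in the medium was measured.

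The genes are commonly read as outputs of cell stress. In the integrated stress response, kinases that sense amino acid shortage, unfolded protein, haem deficiency or double-stranded RNA phosphorylate the initiation factor eIF2, general translation falls, and the transcription factor ATF4 is made in larger amounts. ATF4 binds with a C/EBP partner at a composite element with the letters TGATGNAA and drives genes of amino acid supply, redox balance and cell death, among them several that encode secreted proteins. INHBE encodes the beta E subunit of activin E, and GDF15 encodes a distant relative in the TGF-beta superfamily that acts on the brainstem receptor GFRAL and is also a p53 target. STC2 encodes stanniocalcin 2, a secreted glycoprotein that inhibits the protease PAPP-A. ULBP1 encodes a surface ligand of NKG2D, the activating receptor of natural killer cells, and VLDLR encodes a surface receptor for reelin and for lipoproteins carrying apolipoprotein E. FAM129A, now named NIBAN1, encodes an intracellular stress-induced protein, so the name secreted and surface proteins covers the other 5.

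The reagent that separates the groups is shown first, since it is what the siHKlincR1 cells received and the siNT cells did not. Its sense strand and the guide strand complementary to it are given 5′ to 3′, and the capitals mark the seed, guide positions 2 to 8.
siHKlincR1_2 sense: gaaguauacucgugugcuu
siHKlincR1_2 guide: aAGCACACgaguauacuuc

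The DNA letters that pair with this seed, GTGTGCT, lie in the 3′ UTR of 1512 of 10764 tested genes (14.0%). INHBE holds 1 copy, at position 1167 of its 3′ UTR of 1177 bases, shown here in capitals because it is the only copy among the 6 genes.
INHBE 3′ UTR site: gttaatggaatGTGTGCTtgta
The 3′ UTRs of GDF15, STC2, ULBP1, FAM129A and VLDLR, between 241 and 6188 bases long, hold no copy.

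The composite element was looked for around the start of each gene. In RefSeq promoters on GRCh38.p14, which run from 250 bases before to 50 bases after the start, 5 of the 6 genes had an entry. INHBE had none. None of the 5 held TGATGNAA on either strand, against 3.62% of 35116 promoters, and none held the stricter TGATGCAA (0.866%), the cyclic AMP element TGACGTCA (1.85%) or the ERSE, an element of the unfolded protein response (0.0769%). A wider window, 1000 bases on each side of the canonical transcript start on GRCh37, was added after that count was seen. In it, 5 of the 6 genes held TGATGNAA, against 20.6% of 14716 tested genes, and INHBE, STC2 and VLDLR held TGATGCAA, a subset of those matches, against 4.06%. INHBE, absent from the promoter count, has a match 230 bases before its canonical start, a distance that the promoter span would cover. No such letters lie in the ULBP1 window.

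The matches upstream of a start are written on the strand of the gene, with the match in capitals and the distance of its first base from the start. They are given because they show where the letters of the stress element lie and on which strand. A match is a string of letters and no binding was measured.
INHBE, -706 from the start, chr12:57848368-57848407 (+): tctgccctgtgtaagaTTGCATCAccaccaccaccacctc
INHBE, -230 from the start, chr12:57848844-57848883 (+): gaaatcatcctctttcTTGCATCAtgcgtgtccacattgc
STC2, -752 from the start, chr5:172756146-172756185 (-): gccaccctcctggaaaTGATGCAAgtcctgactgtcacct
VLDLR, -438 from the start, chr9:2621333-2621372 (+): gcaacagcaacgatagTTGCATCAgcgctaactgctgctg
FAM129A, -963 from the start, chr1:184944580-184944619 (-): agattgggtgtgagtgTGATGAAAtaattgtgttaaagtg
INHBE carries the letters in reverse orientation at both places, as does VLDLR, and STC2 and FAM129A carry them in forward orientation. The matches in GDF15 (728 bases downstream of the start), STC2 (581) and FAM129A (718) lie in introns and read TGATGAAA, in FAM129A on the opposite strand.

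The libraries held 24980280 to 30521000 mapped reads in all, and the siNT replicate 3 library was the shallowest. The targeted RNA, HKlincR1, measured 3.62, 3.47 and 3.83 RPKM in the siNT libraries and 0.563, 0.628 and 0.390 RPKM in the siHKlincR1 libraries. The groups did not overlap and the mean was lower by 85.5%, with an exact two-sided permutation p of 0.1, the smallest that 3 against 3 libraries allow. Of the epithelial markers, KRT8, KRT18 and KRT19 were between 28.1 and 88.5 RPKM in every library while EPCAM stayed at or below 0.110 RPKM. The endothelial, leukocyte and alveolar type 2 markers each summed to at most 0.228 RPKM, and the fibroblast markers summed to 1.70 to 1.77 RPKM in siNT and 1.17 to 1.73 RPKM in siHKlincR1, through COL1A1 and PDGFRB.

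All 6 genes passed the filter of a mean of 0.5 RPKM over the 6 libraries that left 15451 genes for testing. INHBE averaged under that level in siNT and passed through the siHKlincR1 libraries. In siNT cells the genes spread over the whole range of levels per length: STC2 ranked 1445 of 15451 by mean RPKM, GDF15 2861, FAM129A 6128, VLDLR 11679, ULBP1 12818 and INHBE 15261. The 3 siNT libraries kept STC2 above GDF15, GDF15 above FAM129A and FAM129A above VLDLR without overlap, whereas the ranges of VLDLR and ULBP1 overlapped, as did those of ULBP1 and INHBE. In the siHKlincR1 libraries STC2 overlapped GDF15, GDF15 overlapped FAM129A, and VLDLR, ULBP1 and INHBE all overlapped each other.

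**Figure D1:**
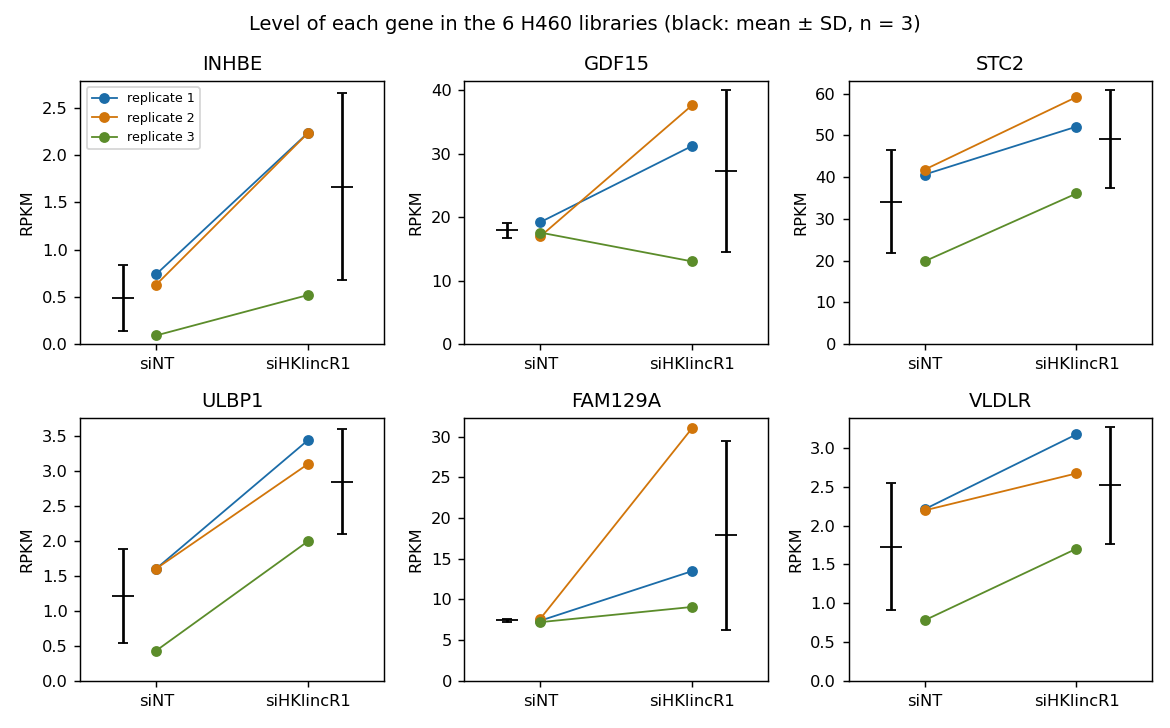
RPKM of the 6 genes in each library (vertical axis, from 0, a scale of its own per gene), with lines joining libraries of the same replicate number and black marks for the group mean ± SD (n = 3). Every line runs upward apart from GDF15 in replicate 3, which runs from 17.6 to 13.0 RPKM.

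The secreted ligands of the TGF-beta superfamily differed in level and in pattern. INHBE (ENSG00000139269, chr12:57846106-57853063, plus strand, GRCh37) measured 0.741, 0.630 and 0.0929 RPKM in siNT replicates 1, 2 and 3 and 2.24, 2.24 and 0.521 RPKM in the siHKlincR1 libraries. The siHKlincR1 replicate 3 library lay below the siNT replicate 1 and 2 libraries, so the groups overlapped, although each siHKlincR1 library was above the siNT library of its own number. The mean went from 0.488 ± 0.347 to 1.67 ± 0.991 RPKM (SD, n = 3), a difference of 1.61 on the log2(RPKM + 0.1) scale with an SE of 0.93 across the libraries. When replicate number entered as a block the SE was 0.069, as the 3 within-number differences on that scale were 1.48, 1.68 and 1.69. The siNT replicate 3 value is close to the added 0.1, which narrows the difference of pair 3, and the ratios of RPKM with nothing added were 3.02, 3.55 and 5.6. The siNT replicate 3 value rests on 7 reads, for which the exact 95% Poisson interval is 2.81 to 14.4 reads, and without that library the log2 difference was 0.94. Over the fits with 1 library left out it ran from 0.94 to 2.25, the highest without siHKlincR1 replicate 3.

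GDF15 (ENSG00000130513, chr19:18485541-18499986, plus strand) measured 19.2, 17.0 and 17.6 RPKM in siNT and 31.2, 37.7 and 13.0 RPKM in siHKlincR1. Replicates 1 and 2 of the knockdown lay above every siNT library and replicate 3 lay below every siNT library. The mean went from 17.9 ± 1.16 to 27.3 ± 12.8 RPKM, a log2 difference of 0.47 with an SE of 0.47 that the block left at 0.47. The log2 difference was 0.31, 0.17 and 0.93 without siHKlincR1 replicate 1, 2 and 3 in turn. The deposited gene overlaps MIR3189 on the same strand, which held at most 3 reads in a library.

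STC2 (ENSG00000113739, chr5:172741726-172755450, minus strand), the most abundant of the 6, measured 40.6, 41.8 and 19.8 RPKM in siNT and 52.1, 59.2 and 36.1 RPKM in siHKlincR1. The siHKlincR1 replicate 3 library lay below siNT replicates 1 and 2. The mean went from 34.1 ± 12.3 to 49.1 ± 11.8 RPKM, a log2 difference of 0.57 with an SE of 0.41, or 0.15 with the block. Without siNT replicate 3 the log2 difference was 0.22.

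The RNAs of the surface proteins were at low levels per length. ULBP1 (ENSG00000111981, chr6:150285079-150294851, plus strand) measured 1.61, 1.61 and 0.433 RPKM in siNT and 3.44, 3.10 and 2.00 RPKM in siHKlincR1. Its lowest siHKlincR1 library lay above its highest siNT library. The mean went from 1.22 ± 0.677 to 2.85 ± 0.755 RPKM, a log2 difference of 1.31 with an SE of 0.61, or 0.33 with the block, and of 0.75 without siNT replicate 3, in which the gene had 17 reads.

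VLDLR (ENSG00000147852, chr9:2621182-2660056, plus strand) measured 2.21, 2.20 and 0.780 RPKM in siNT and 3.18, 2.67 and 1.70 RPKM in siHKlincR1. The groups overlapped through the replicate 3 libraries, and each siHKlincR1 library was above its own siNT number. The mean went from 1.73 ± 0.822 to 2.52 ± 0.749 RPKM, a log2 difference of 0.60 with an SE of 0.53, or 0.23 with the block, and of 0.14 without siNT replicate 3. The antisense gene VLDLR-AS1 lies in the same region on the other strand at 0.0091 to 0.165 RPKM. The libraries were made strand-specific, and whether the reads were counted by strand is not given in the sources used here.

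FAM129A (ENSG00000135842, chr1:184759858-184943640, minus strand), the intracellular protein of the group, measured 7.40, 7.65 and 7.22 RPKM in siNT and 13.5, 31.1 and 9.08 RPKM in siHKlincR1. All 3 siHKlincR1 libraries lay above all siNT libraries, by the widest margin in replicate 2. The mean went from 7.42 ± 0.219 to 17.9 ± 11.6 RPKM, a log2 difference of 1.06 with an SE of 0.52, or 0.50 with the block. Without siHKlincR1 replicate 2 it was 0.57.

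ULBP1 and FAM129A were therefore the 2 of 6 genes whose groups did not overlap, beside 10.1% of all tested genes that were separated in this direction and 11.9% in the other. That contrast chose the genes, so nothing is read from their count. The median log2 difference of the 6 was 0.83 and that of all tested genes was 0.0011.

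**Figure D2:**
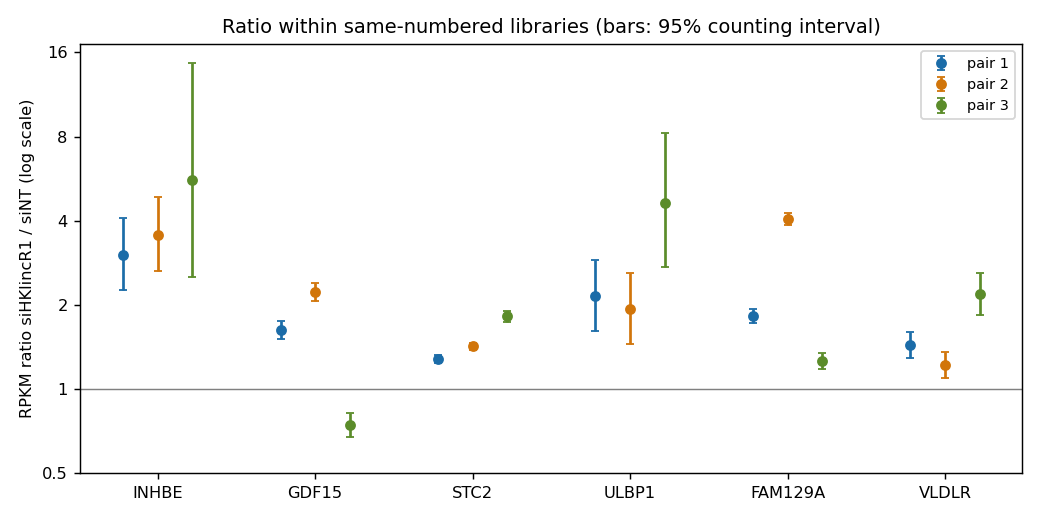
Ratio of RPKM in siHKlincR1 to RPKM in siNT within each replicate number (vertical axis, log scale), with 95% intervals from the exact binomial split of the reads, which cover counting error only. INHBE, STC2, ULBP1 and VLDLR have their highest ratio in pair 3, and GDF15 and FAM129A have their lowest there.

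Compared within a replicate number, 17 of the 18 differences were above 0. The INHBE ratio was highest in pair 3, at 5.6, with a counting interval of 2.52 to 14.7. ULBP1 had ratios of 2.15, 1.93 and 4.62. VLDLR had ratios of 1.44, 1.22 and 2.18. These 3 genes and STC2, with 1.28, 1.42 and 1.82, shared an order in which pair 3 had the highest ratio, although the counting interval of pair 3 overlapped those of both other pairs for INHBE and that of pair 1 for ULBP1.

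GDF15 and FAM129A had the opposite order. The GDF15 ratio was 1.63 in pair 1, 2.22 in pair 2 and 0.742 in pair 3, where the counting interval of 0.674 to 0.816 lay below 1. The FAM129A ratio was 1.82, 4.06 and 1.26. The counting intervals of pairs 2 and 3 did not overlap for either gene.

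**Figure D3:**
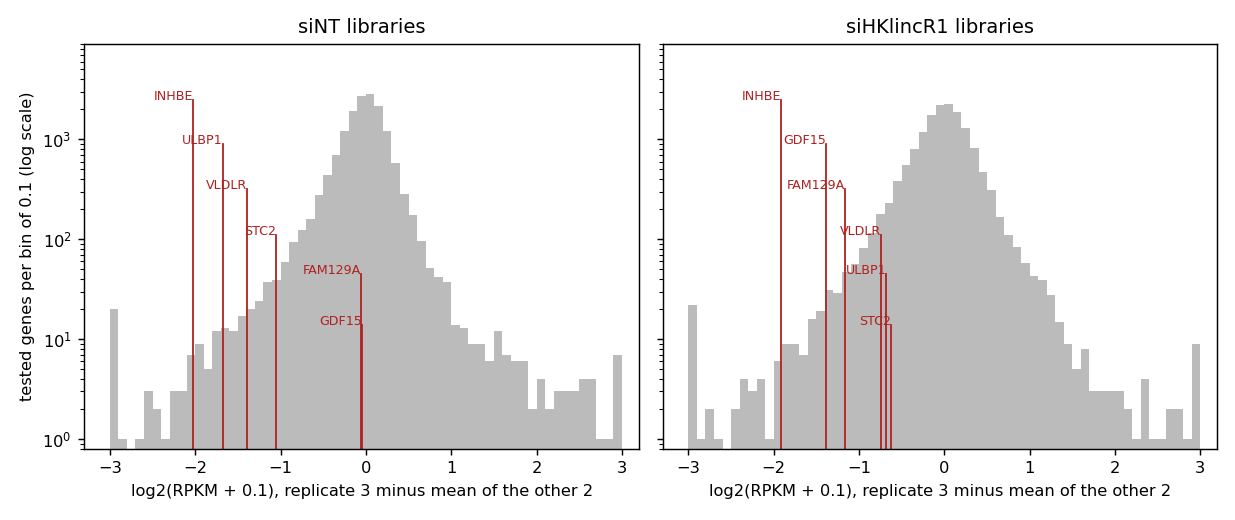
Histogram over the 15451 tested genes of log2(RPKM + 0.1) in replicate 3 minus the mean of the other 2 replicates (horizontal axis, values beyond 3 in either direction placed in the end bins), with red lines at the 6 genes whose height carries no value. INHBE, ULBP1, VLDLR and STC2 lie in the lower tail in siNT, and INHBE, GDF15 and FAM129A do in siHKlincR1.

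The replicate 3 libraries stood low for these genes in both groups. In siNT, replicate 3 lay more than 1 log2 unit below the mean of the other 2 for 4 of the 6 genes, against 1.48% of tested genes. The log2 distance was -2.02 for INHBE, -1.68 for ULBP1, -1.39 for VLDLR and -1.05 for STC2. GDF15 and FAM129A differed little, at -0.04 and -0.06.

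In siHKlincR1 the same was so for 3 of the 6 genes, against 1.74% of tested genes. The log2 distance was -1.91 for INHBE, -1.39 for GDF15 and -1.16 for FAM129A, and between -0.74 and -0.62 for VLDLR, ULBP1 and STC2. The lowest siHKlincR1 value was in replicate 3 for all 6 genes, as it was for 40.7% of tested genes, and the lowest siNT value for 5 of them, against 41.0%. Replicate 3 was the shallowest siNT library and the deepest siHKlincR1 library. A low siNT replicate 3 value also raises the difference that chose the genes, so these counts are not independent of the choice. With both replicate 3 libraries left out, an alternative added after these values were seen, the log2 difference was 1.58 for INHBE, 0.92 for GDF15, 0.43 for STC2, 0.98 for ULBP1, 1.43 for FAM129A and 0.39 for VLDLR.

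The genes nearest in profile to each of the 6 included 3 of the 20 listed regulators of the integrated stress response, ATF3, SESN2 and PPP1R15A. Likeness was the root mean square difference over the 6 libraries of log2(RPKM + 0.1) after each gene's siNT mean was subtracted, among 13400 genes averaging 1 RPKM or more. It includes the difference between the groups that chose the 6 genes, so it is a description. The list of regulators was drawn up with earlier results known, so nothing is read from the count of 3. STC2 was nearest to ATF3, a stress-induced transcription factor, at 0.03 log2 units, with ATF3 at 6.99, 7.11 and 3.54 RPKM in siNT and 9.21, 10.1 and 6.46 RPKM in siHKlincR1. ULBP1 was nearest to SESN2, a sensor in amino acid signalling to mTORC1, at 0.18, and next to CALB2 at 0.25. FAM129A was nearest to the unnamed gene ENSG00000249945 at 0.26 and next to PPP1R15A at 0.27, which encodes the subunit that directs a phosphatase to eIF2.

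The nearest genes of GDF15, INHBE and VLDLR were not among the 20 listed regulators. GDF15 was nearest to EID3 at 0.12 and ROBO3 at 0.13, both with siHKlincR1 replicate 3 below the lowest siNT library. INHBE was nearest to LINC02806 at 0.09 and G0S2 at 0.32. VLDLR was nearest to TSC22D3, a glucocorticoid-induced gene, at 0.10, and next to PSAT1P3 at 0.15, a pseudogene whose reads may belong in part to its parent gene. The second neighbour of STC2 was ZNF674, at 0.08.

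The other genes of each pathway were tested over the whole table, with a call at an adjusted p under 0.05 (limma, Benjamini-Hochberg) and a fold change above 1.5. Without the block 1 gene of 15451 was called higher (0.00647%) and 55 lower (0.356%), and when replicate number entered as a block 79 were higher (0.511%) and 125 lower (0.809%). The block rests on a pairing found in these same data and not stated in the labels. Of 111 tested genes in the 10 lists, with the 6 genes left out, none was called higher and 1 lower without the block, and 7 were higher (6.31%) and 1 lower with it. The median log2 difference of the 111 was -0.01. The lists were drawn up with earlier results of these data known, so the excess over the table is no independent sign.

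Among 20 regulators of the integrated stress response, none was called without the block and 3 were called higher with it. Over all tested genes 0.511% were called higher with the block. The lists were drawn up with earlier results known, so nothing is read from the counts of this and the following lists. DDIT3, which encodes the transcription factor CHOP, averaged 20.5 ± 7.82 RPKM in siNT and 40.0 ± 15.5 in siHKlincR1, a log2 difference of 0.96 (limma adjusted p = 0.302, with the block 0.0138). CEBPG, a C/EBP partner of ATF4, had a log2 difference of 0.74 (limma adjusted p = 0.266, with the block 0.0138). TRIB3, a pseudokinase induced by ATF4, had a log2 difference of 0.64 (limma adjusted p = 0.32, with the block 0.0138). These block calls held in 2 of 16 alternative fits each, the block and the fit without both replicate 3 libraries. Their adjusted p ran up to 0.606 for DDIT3, 0.575 for CEBPG and 0.633 for TRIB3.

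The widest log2 differences in this list belonged to genes that were not called. CHAC1, which degrades glutathione, had 1.46, SESN2 1.12 and NUPR1, a stress-induced chromatin protein, 1.02. CHAC1 in siNT replicate 3 lay at -3.60 log2 units from the other 2, and its log2 difference was 0.29 and 0.33 in pairs 1 and 2 but 3.76 in pair 3. For 5 of the 20 genes siNT replicate 3 lay more than 1 log2 unit below the other 2. ATF4 itself averaged 179.8 ± 21.1 and 204.5 ± 7.75 RPKM, a log2 difference of 0.19 (limma adjusted p = 0.358, with the block 0.134). EIF2AK1, which encodes an eIF2 kinase, had the lowest difference of the list, at -0.32 (limma adjusted p = 0.101, with the block 0.0493). Neither was called, and the EIF2AK1 fold change did not reach 1.5. In this list 15 genes had differences above 0 and 5 below 0. The list median was 0.26.

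Of 18 p53 targets, 2 were called higher with the block, beside 0.511% of all tested genes. GADD45A, a growth arrest gene that ATF4 also induces, averaged 17.6 ± 4.56 and 34.8 ± 11.8 RPKM, a log2 difference of 0.95 (limma adjusted p = 0.237, with the block 0.017). BBC3, which encodes the death protein PUMA, had a log2 difference of 0.67 (limma adjusted p = 0.257, with the block 0.0444). Over the 16 alternative fits the adjusted p ran from 0.0152 to 0.556 for GADD45A and from 0.0431 to 0.568 for BBC3. TP53INP1, a target in autophagy, had -0.40 and was not called (adjusted p = 0.352 by limma, 0.251 with the block). In this list 13 genes had differences above 0 and 5 below 0. BAX had 0.02, CDKN1A -0.14 and MDM2 -0.24, and none of these was called. The list median was 0.09.

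**Figure D4:**
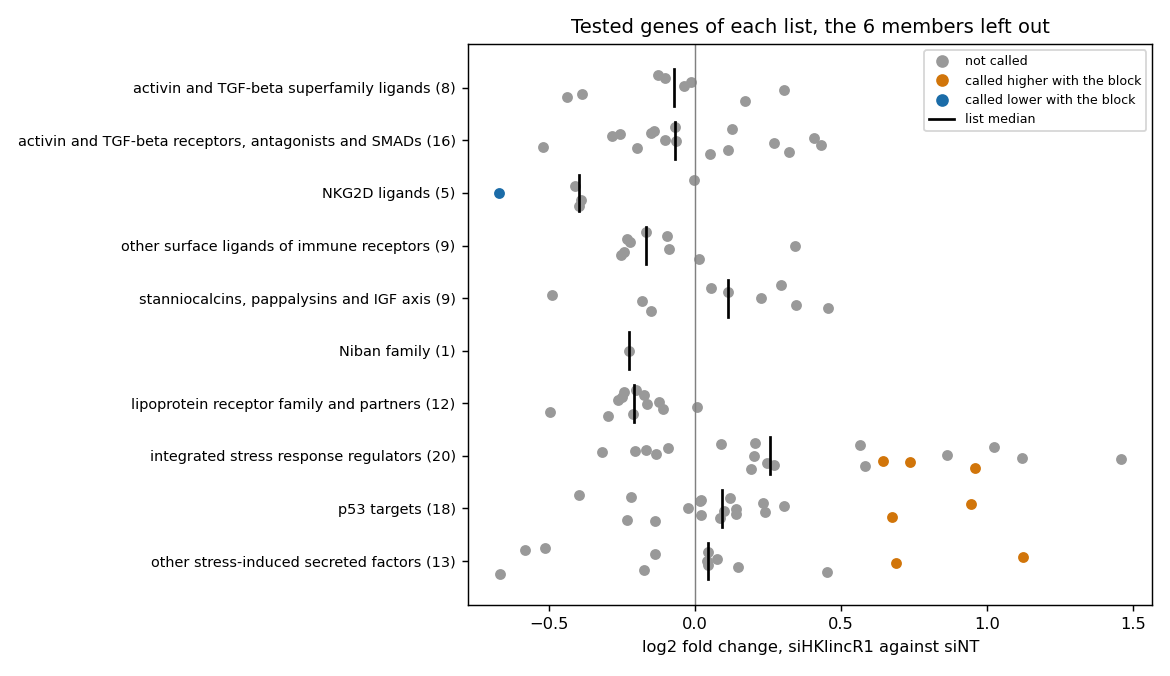
Log2 difference between siHKlincR1 and siNT (horizontal axis) for the tested genes of each list (number in parentheses, the 6 chosen genes left out), coloured by the call with the replicate block, with a black bar at the list median. Orange points, the calls higher, lie in the stress response, p53 and secreted factor lists, and the blue point, the call lower, is ULBP2.

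Of 13 other stress-induced secreted factors, AREG and ADM2 were called higher with the block, beside 0.511% of all tested genes. AREG, an EGF receptor ligand, averaged 25.8 ± 4.55 and 42.0 ± 10.1 RPKM, a log2 difference of 0.69 (limma adjusted p = 0.212, with the block 0.0443). ADM2, which encodes the peptide intermedin, had 1.12 (limma adjusted p = 0.361, with the block 0.0447). Over the alternative fits the adjusted p ran from 0.0339 to 0.523 for AREG and from 0.029 to 0.667 for ADM2. ANGPTL4, an inhibitor of lipoprotein lipase, had -0.67 and was not called (adjusted p = 0.399 by limma, 0.191 with the block). MANF had -0.58 (limma adjusted p = 0.274, with the block 0.0534). CRELD2 had -0.52 (limma adjusted p = 0.164, with the block 0.0436), and its siHKlincR1 libraries all lay below its siNT libraries. Neither was called, and the CRELD2 fold change fell short of the threshold for a call. In this list 8 genes had differences above 0 and 5 below 0. The list median was 0.04, beside 0.0011 over all tested genes.

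None of the tested relatives of the chosen genes was called higher. Over all tested genes 0.00647% were called higher without the block and 0.511% with it, and 0.356% and 0.809% were called lower. Calls were that rare over the table, so nothing is read from their absence in short lists. For INHBE and GDF15, none of 8 tested TGF-beta superfamily ligands was called with or without the block, and their log2 differences ran from -0.44 for GDF11 through -0.39 for TGFB1 to 0.30 for TGFB2. INHBA, the activin A subunit, averaged 2.76 ± 0.872 and 3.03 ± 0.526 RPKM. INHBB, INHBC and INHA averaged at most 0.0858 RPKM in either group and were not tested. None of 16 receptors, antagonists and SMADs was called, with FST, the activin antagonist follistatin, at 0.41, TGFBR2 at 0.43 and TGFBR1 at -0.52. GFRAL was listed at 0 in all 6 libraries.

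ULBP1 was chosen for its rise, so its place above its relatives owes in part to that choice. The 5 other NKG2D ligands that were tested had log2 differences from -0.67 to -0.01, beside a median of 0.0011 over all tested genes. The -0.01 belongs to RAET1E, has an SE of 0.21 and is no clear difference. RAET1G and RAET1L were not tested. ULBP2 measured 5.09 ± 0.388 RPKM in siNT and 3.15 ± 0.129 in siHKlincR1, a log2 difference of -0.67, and was called lower (limma adjusted p = 0.0365, with the block 0.0374). That call held in 8 of 16 alternative fits, with adjusted p from 0.0282 to 0.213. ULBP3 had -0.41 and MICA -0.40, and neither was called. Reads may be split among related ULBP and RAET1 genes, whose sequences were not compared here, and this was not tested. None of ULBP2, ULBP3, RAET1E, MICA and MICB holds the seed letters in its 3′ UTR. Of the genes named from the other family and ligand lists with differences below 0, GDF11 holds 2 copies and LRP4 holds 1. TGFB1, TGFBR1, LRP1, LRP8, LRP11, STC1, IGFBP4, FAM129B, NECTIN2 and NCR3LG1 hold none. An effect of the seed was not tested.

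**Figure D5:**
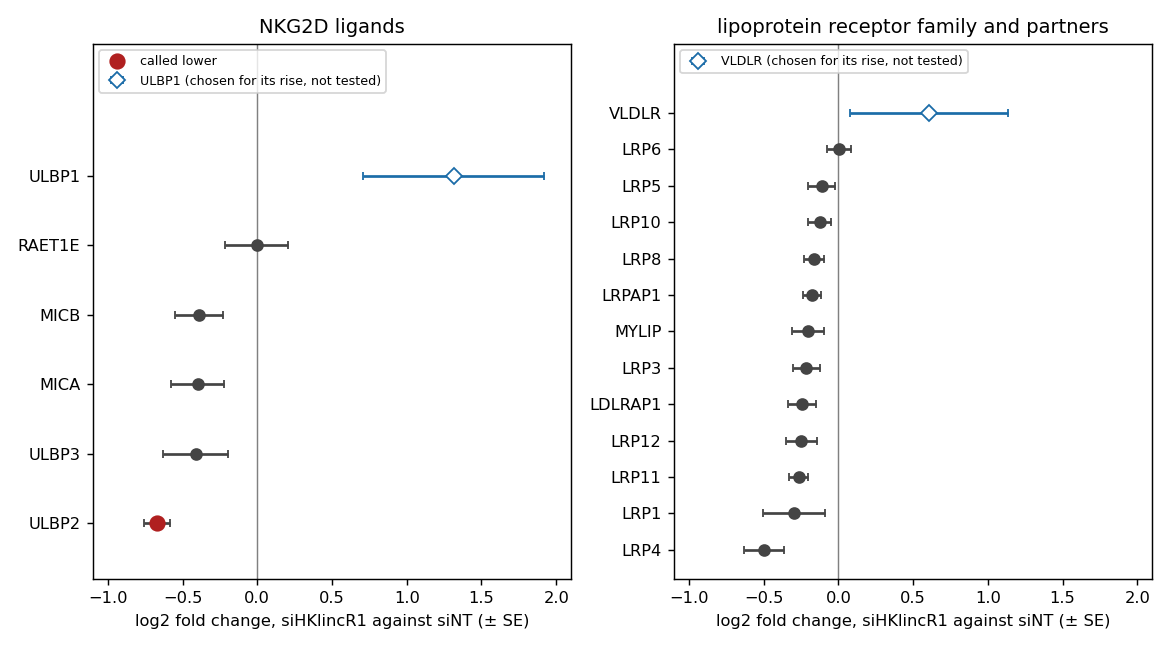
Log2 difference between siHKlincR1 and siNT (horizontal axis) with its SE for the tested NKG2D ligands and for the lipoprotein receptor family and its partners, where circles carry the SE moderated by limma and the open diamonds mark ULBP1 and VLDLR with the SE of their own libraries. ULBP1 at 1.31 and VLDLR at 0.60 were chosen for their rise, so their place to the right of every relative is no result. ULBP2 (red) is the only called gene.

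Most of the lipoprotein receptor family also had differences below 0. VLDLR was chosen for its rise, so its contrast with them owes in part to that choice, and without siNT replicate 3 its difference was 0.14. Of 12 tested family members and partners, 11 had log2 differences below 0 and 7 had siHKlincR1 libraries that all lay below all siNT libraries, against 11.9% of tested genes, while none was called. LRP4 had the widest, at -0.50, followed by LRP1 at -0.30 and LRP11 at -0.27. LRP11 averaged 18.3 ± 0.223 and 15.2 ± 0.768 RPKM. LRP8, which shares reelin with VLDLR, averaged 22.6 ± 0.338 and 20.2 ± 1.18 RPKM and was thus more abundant per length than VLDLR in both groups. RELN itself averaged at most 0.00816 RPKM.

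Around STC2, none of 9 tested genes of the stanniocalcin and IGF axis was called. IGFBP4, the substrate that PAPP-A cleaves, averaged 180.1 ± 7.89 and 128.0 ± 3.34 RPKM, a log2 difference of -0.49 whose adjusted p of 0.033 (limma, 0.0296 with the block) passed while its fold change did not reach 1.5. PAPPA had 0.46 and PAPPA2 had 0.35. STC1 averaged 119.4 ± 24.5 and 106.4 ± 14.4 RPKM, above STC2 per length in both groups. The Niban relative FAM129B averaged 88.1 ± 3.48 and 75.3 ± 1.74 RPKM, with a log2 difference of -0.23, and was not called. Among 9 other surface ligands of immune receptors none was called, with CD274, the PD-1 ligand, at 0.34, NECTIN2 at -0.25 and NCR3LG1 at -0.24.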

How the data were processed

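The authors deposited 1 table of RPKM values for 57773 Ensembl genes in 6 libraries, described as 3 biological replicates a group. Reads were paired-end and 75 bases long. The submitters' processing notes name CASAVA 1.8.2, featureCounts and hg19, with the gene models of Ensembl per the study's methods, and the aligner is not given in the sources used here. All values of the 31287 genes above 0 came back as whole reads within 0.001 reads, which gave the library totals. Samples were grouped by the labelled siRNA. Gene positions and names come from GENCODE 44 lifted to GRCh37, in which 55538 identifiers were found.

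Genes averaging 0.5 RPKM or more were fitted with limma 3.58.1 (R 4.3.3) on log2(RPKM + 0.1) with a trended prior and Benjamini-Hochberg adjustment, after tests on simulated data. Same-numbered libraries deviated together (r = 0.142, 0.137 and 0.266 across genes, against -0.209 to 0.113 for other pairs). The 0.113, for siNT 1 with siHKlincR1 2, is close to the values of pairs 1 and 2, so mainly replicate 3 stands apart. Deviations were taken from the mean of each group, which pushes other pairs below 0 where same-numbered pairs lie above 0. The pairing was found in the data and is not stated in the labels, so the block is given beside each call it changes. Whether replicates were separate transfections on separate days is not given in the sources used here. Intervals cover counting error only.

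Members and lists were chosen with earlier results of these data known. Named genes are the 6, the 3 widest differences of each list, every called gene and the 2 nearest profiles. INHBA, INHBB, INHBC, INHA, GFRAL, STC1, FAM129B, LRP8, RELN and MICB were named after their values were seen. RAET1E, RAET1G, RAET1L, BAX, CDKN1A, MDM2, MANF, CRELD2, ATF4 and EIF2AK1 were named likewise. Wider motif windows and the fits without both replicate 3 libraries were added later. Other alternatives were the pseudocount, filter, scaling, prior, block, voom, fold threshold and each library left out. Some genes of the lists are not reported here and were left out of their counts. Protein sequences were not analysed here.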

Additional observations from a re-analysis of the deposited data

How the results depend on the processing

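The number of genes called higher over the table was 1 and moved to 12 without the filter on low RPKM, 0 with a pseudocount of 0.01, 79 with the replicate block, 2 with voom, 2 with the adjusted p alone and 181 without both replicate 3 libraries, and ran from 0 to 205 when 1 library was left out. The number called lower was 55 and moved to 34 without the filter, 16 without the trend, 125 with the block, 87 with voom and 259 without both replicate 3 libraries, and ran from 7 to 315 when 1 library was left out. Both upper ends came without siHKlincR1 replicate 3. Of the list genes, 0 were called higher, 7 with the paired fit (the block), 8 without both replicate 3 libraries and 0 to 4 with 1 library left out. Of the list genes, 1 was called lower, 0 without the filter, without the trend or with a pseudocount of 1, 2 with the adjusted p alone or without both replicate 3 libraries, and 0 to 4 with 1 library left out. The fits without both replicate 3 libraries, and each pair alone, were added after seeing the data. The cause of these shifts was not tested. GDF15 had log2 differences of 1.14 in pair 2 and -0.43 in pair 3, and FAM129A had 2.01 and 0.33. A pseudocount of 1 brought INHBE to 0.79, ULBP1 to 0.83 and VLDLR to 0.39. Median-ratio scaling changed no direction among the 6 genes. The HKlincR1 reduction ran from 83.6% to 86.9% with 1 library left out. With few reads for INHBE and ULBP1 in siNT replicate 3, depth limits those ratios.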
